A study of Mus musculus with 12 samples.

Results

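Mouse marrow cells that carried mutant IDH1 were compared with marrow cells that carried wild-type IDH1, across all measured genes. The comparison used 6 of the 12 arrays of the series, 3 from IDH1mut cells and 3 from IDH1wt cells, as the sample titles name them. Every cell of the series came from bone marrow of the mouse strain C57BL6 and had been immortalised with HoxA9. IDH1mut cells received the retroviral construct pSF91-IDH1mut-IRES-GFP and IDH1wt cells received pSF91-IDH1wt-IRES-EGFP, in which an internal ribosome entry site joins IDH1 to a green fluorescent protein. The cells were put into irradiated syngeneic mice, and GFP-positive marrow cells were sorted 4 weeks later for total RNA. Empty vector cells from mice that received a daily dose of 1 mg R-2HG over 4 weeks (3 arrays) and empty vector cells from untreated mice (3 arrays) are given beside some genes. The description of the R-2HG arrays names the IDH1mut vector, while their titles, source names and construct name empty vector, and the titles were used. The labels name neither the amino acid change of the mutant nor the age of the mice. Nor do they say whether each replicate is a mouse of its own. The p-values then measure only the spread between these arrays, which may be technical.

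IDH1 is a cytosolic enzyme that turns isocitrate into 2-oxoglutarate with production of NADPH. The mutants found in leukaemia turn 2-oxoglutarate into R-2-hydroxyglutarate (R-2HG) instead, a metabolite that competes with 2-oxoglutarate in the TET and other dioxygenases. HoxA9 is a homeobox factor under which myeloid progenitors go on dividing. Such progenitors mature into neutrophils in steps: primary granule proteins such as myeloperoxidase and elastase are made first, secondary granule proteins such as lactoferrin next, and the surface receptors of the mature neutrophil last.

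The values are log2 expression values centred per probe set, so a value of 0 is near the middle of the arrays and no absolute level can be read from it. A gene's value is the mean of all its probe sets, and differences are IDH1mut minus IDH1wt on the log2 scale, with the SE of a limma fit over n = 3 arrays per group. A gene was called when its limma p, adjusted by Benjamini-Hochberg over all 15858 genes, was under 0.05. Between any 2 arrays, the difference per probe set had an SD of 0.239 to 0.270 within IDH1mut and 0.231 to 0.289 within IDH1wt, against 0.348 to 0.394 in the 9 pairs that crossed the groups. Each of those 9 pairs thus differed by more than any pair within a group. Fewer cells of one type and less RNA per cell cannot be told apart in such sorted bulk samples.

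Limma called 15.7% of all genes, 8.37% higher and 7.29% lower in IDH1mut than in IDH1wt. Most changes were small: the median size of a called difference was 0.42. A change of at least 4-fold was reached by 7 called genes that were higher and 4 that were lower, clone and predicted names included. For 32.7% of all genes the arrays of IDH1mut and IDH1wt did not overlap, with all 3 IDH1mut arrays above for 15.8% and below for 16.9%.

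**Figure D1:**
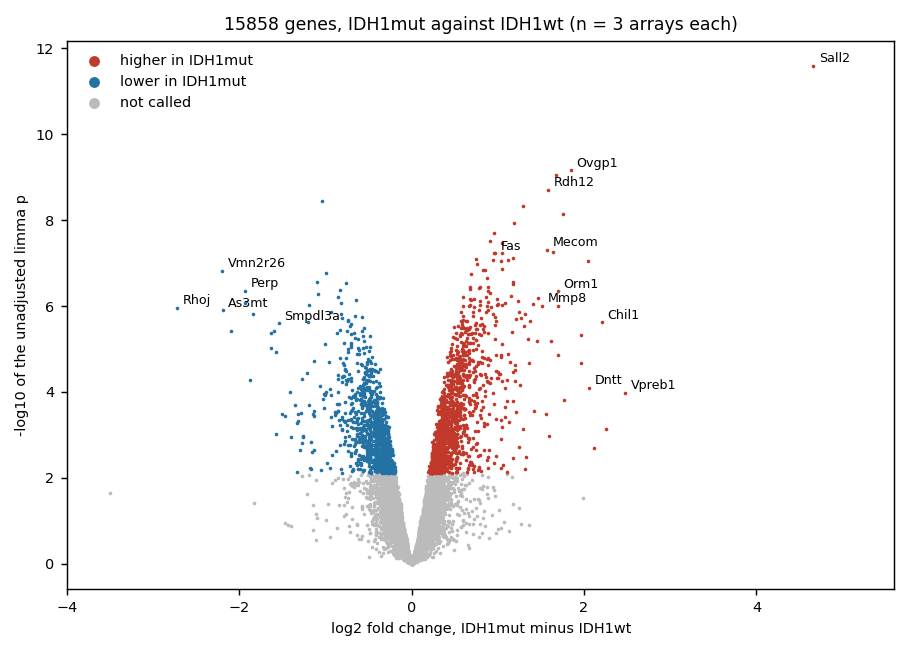
Each point is 1 of 15858 genes, with its log2 difference IDH1mut minus IDH1wt on the horizontal axis and the negative log10 of its unadjusted limma p on the vertical axis. Called genes are red (1328 higher in IDH1mut) or blue (1156 lower), and Sall2 stands apart at a difference of 4.66.

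Sall2, a zinc finger transcription factor gene of the Spalt-like family, had the largest increase. It stood at 4.92, 4.65 and 4.08 in the 3 IDH1mut arrays and at -0.13, -0.21 and 0.02 in the 3 IDH1wt arrays, a difference of 4.66 ± 0.16 (SE, n = 3 per group), which is 25.3-fold (limma adjusted p = 4e-08). R-2HG arrays held -0.15, 0.01 and 0.01 and empty vector arrays -0.14, -0.27 and -0.12. The 3 IDH1mut arrays were therefore high and the other 9 arrays lay close together. Of the SALL family, 4 genes were measured and Sall2 was the 1 called. Sall2 lies on chromosome 14 at 52311177 to 52328670 (GRCm38.p6, from a RefSeq gene table). Its 2 nearest measured genes on each side were chosen by position after the values of Sall2 were seen. Of these, Mettl3, an RNA methyltransferase gene, was called at 0.33 ± 0.08 (adjusted p = 0.0134), while Tox4 stood at -0.13 and the olfactory receptor genes Olfr1509 and Olfr1508 at -0.02 and 0.01.

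The genes whose values followed Sall2 most closely over the 12 arrays were Fas, Nfam1, Rdh12, Cd33 and Hcfc2, with Pearson correlations of 0.986, 0.979, 0.977, 0.976 and 0.975. For all of them the 3 IDH1mut arrays stood above the other 9. Fas, the death receptor gene, stood at 1.06, 0.91 and 0.79 in IDH1mut and at 0.04, -0.12 and -0.08 in IDH1wt (0.97 ± 0.08, adjusted p = 5.92e-05). Cd33, a sialic acid-binding lectin gene of myeloid cells, stood at 0.86, 0.87 and 0.76 in IDH1mut and at -0.10, 0.00 and -0.09 in IDH1wt (0.89 ± 0.09, adjusted p = 0.000156). Nfam1, a signalling receptor gene of immune cells, differed by 0.57 ± 0.07 and Hcfc2, a host cell factor gene, by 0.45 ± 0.06. For each of these genes all IDH1mut arrays lay above all IDH1wt arrays, which follows from how they were chosen. Sall2 is high in the 3 IDH1mut arrays alone, so genes that follow it closely must set these arrays apart. Their separation and their p-values are therefore no further evidence.

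Among the other large increases were genes of varied function. Chil1, a chitinase-like secreted protein gene of neutrophil granules, held 2.20, 2.35 and 2.08 in IDH1mut and 0.00, -0.03 and 0.02 in IDH1wt (2.21 ± 0.26, adjusted p = 0.000353). Fmnl2, a formin that builds actin filaments, held 1.82, 1.89 and 1.89 in IDH1mut and -0.34, 0.06 and 0.00 in IDH1wt (1.96 ± 0.25, adjusted p = 0.000473). Both were also high in the R-2HG arrays, at 1.51 to 2.85 for Chil1 and 0.97 to 2.14 for Fmnl2, so their values there spread more than within IDH1mut. The call of Chil1 was lost when the prior variance was allowed to follow a trend (adjusted p = 0.342). Ovgp1, which encodes another glycoprotein of the chitinase family, held 1.29, 1.29 and 1.39 in IDH1mut and -0.62, -0.53 and -0.44 in IDH1wt, with a difference of 1.85 ± 0.11 (adjusted p = 4.81e-06). Rdh12, a retinol dehydrogenase gene, held 1.63, 1.56 and 1.38 in IDH1mut and -0.04, -0.05 and -0.08 in IDH1wt, with a difference of 1.58 ± 0.10 (adjusted p = 7.78e-06). Replicates of these 2 genes lay close together and far from the other group.

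Several genes best known from other tissues belonged to the same set. Klhl41, a kelch gene of skeletal muscle, differed by 1.64 ± 0.14, Tex15, a gene of male germ cells, by 1.61 ± 0.21, Dnah6, a dynein heavy chain of cilia, by 1.96 ± 0.29, and Ppp1r42, a phosphatase-binding protein gene, by 1.67 ± 0.10. Scrg1, first described in scrapie-infected brain, held 2.31, 1.81 and 1.48 in IDH1mut and -0.05, 0.24 and 0.32 in IDH1wt (1.70 ± 0.19, adjusted p = 0.000217). Orm1, an acute phase protein gene, held 1.49, 1.82 and 1.31 in IDH1mut and -0.03, -0.39 and -0.07 in IDH1wt (1.70 ± 0.17, adjusted p = 0.000168). Their arrays did not overlap between the groups, which was a condition for being named among the largest changes. H60c, a ligand gene of the NK cell receptor NKG2D, differed by 2.25 ± 0.50 (adjusted p = 0.0105). It held 0.31, 0.19 and 0.60 in IDH1mut and -2.12, -1.96 and -1.57 in IDH1wt, while empty vector arrays held 0.99, 0.00 and 0.14, and the IDH1wt arrays were the lowest of the 12.

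Rhoj had the largest called decrease. It stood at -0.61, -0.24 and 0.00 in IDH1mut and at 2.75, 2.12 and 2.44 in IDH1wt, a difference of -2.72 ± 0.30 (adjusted p = 0.000231), and was 6.57-fold higher in IDH1wt. Empty vector arrays held 2.49, 2.86 and 2.93, as high as IDH1wt, and R-2HG arrays held -1.32, -1.33 and -0.05. The call of Rhoj was lost with a trended prior variance (adjusted p = 0.0883). As3mt, which methylates arsenic, held -0.99, -0.49 and -0.61 in IDH1mut and 1.52, 1.30 and 1.65 in IDH1wt (-2.19 ± 0.25, adjusted p = 0.000256). Vmn2r26, a vomeronasal receptor gene, differed by -2.20 ± 0.20, Mansc1, a membrane protein gene, by -2.10 ± 0.26, and Hnmt, which inactivates histamine, by -1.88 ± 0.31. For these 4 genes every IDH1mut array lay below every IDH1wt array, as the choice required, and below every empty vector array.

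Cdkn2a, the locus of the growth inhibitors p16 and p19, held -1.54, -1.60 and -1.50 in IDH1mut and 0.31, 0.02 and -0.05 in IDH1wt. The difference was -1.63 ± 0.21 (adjusted p = 0.00045), and Cdkn2a was 3.11-fold higher in IDH1wt. R-2HG arrays held -0.76, -0.61 and -0.28, and empty vector arrays 0.26, 1.22 and 1.01. All 3 IDH1mut arrays were therefore the lowest of the 12. The sources used here do not say which of its transcripts its 1 probe set reads. Among 11 measured CDK inhibitor genes 1 more was called (18.2% in all, against 15.7% of all genes). This was Cdkn1b, which encodes p27. It held 0.53, 0.41 and 0.22 in IDH1mut and -0.13, -0.31 and -0.11 in IDH1wt, and rose by 0.57 ± 0.10 (adjusted p = 0.00254). Cdkn2b, the neighbour of Cdkn2a that encodes p15, stood at -0.29 ± 0.13 (adjusted p = 0.161).

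A further group of decreases differed in another way. Perp, a p53 target gene of cell junctions, held -0.17, 0.04 and 0.00 in IDH1mut and 1.62, 2.12 and 1.92 in IDH1wt (-1.93 ± 0.20, adjusted p = 0.000168), with -0.23, -0.26 and -0.32 in empty vector arrays. Pls3, an actin-bundling plastin gene, held 0.33, 0.78 and 0.25 in IDH1mut and 2.80, 1.86 and 2.22 in IDH1wt (-1.84 ± 0.21, adjusted p = 0.000281), with -0.09, 0.00 and 0.17 in empty vector arrays. Here the IDH1wt arrays stood above all others, and the IDH1mut arrays lay near empty vector. Gspt2, a translation termination factor gene (-1.60 ± 0.20), Il17re, a receptor gene for an interleukin 17 cytokine (-1.58 ± 0.22), and Colec12, a scavenger receptor gene (-1.41 ± 0.25), likewise had every IDH1wt array above all 9 others. IDH1wt minus empty vector was called for all 5 of them, from 1.36 for Colec12 to 2.26 for Pls3, in a comparison that called 1.35% of all genes. The 5 were grouped because their IDH1wt arrays stood above all others, empty vector included. Their calls therefore largely follow from that choice and are no further evidence. The 3 probe sets of Il17re differed by -3.08, -1.13 and -0.52.

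**Figure D2:**
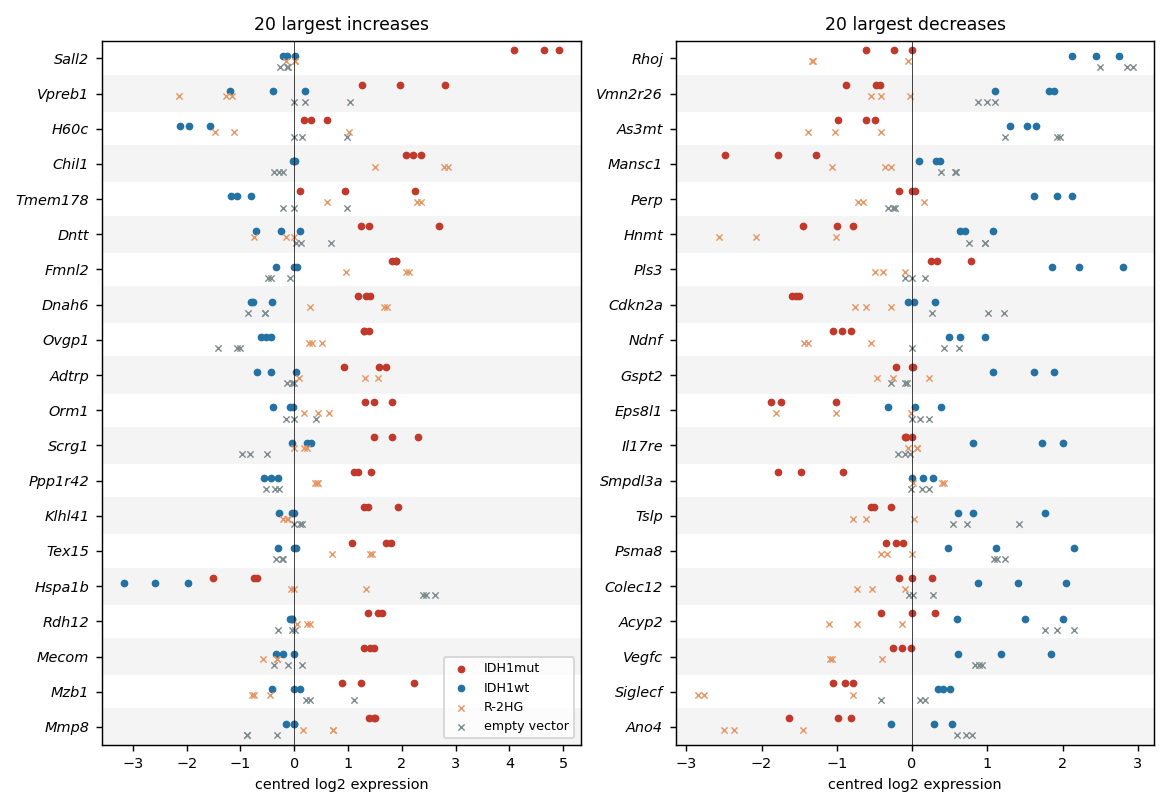
Centred log2 expression of the 20 genes with the largest called increases (left) and decreases (right), clone and predicted gene names left out, 1 point per array, with IDH1mut in red, IDH1wt in blue, R-2HG as orange crosses and empty vector as grey crosses. Only genes whose IDH1mut and IDH1wt arrays did not overlap were eligible, so red and blue points lie apart by choice. For Perp, Pls3, Gspt2, Il17re and Colec12 the blue points stand away from all others.

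Primary granule genes were called mostly lower and later neutrophil genes mostly higher in IDH1mut. Of 11 measured primary granule genes, 6 were called lower and 1 higher (63.6% in all, against 15.7% of all genes). Their median difference was -0.59, whereas all genes had a median of 0. Elane, the neutrophil elastase gene, held -0.73, -0.66 and -0.87 in IDH1mut and 0.11, 0.11 and -0.06 in IDH1wt (-0.81 ± 0.13, adjusted p = 0.00179). Mpo, the myeloperoxidase gene, held -0.47, -0.50 and -0.44 in IDH1mut and 0.17, 0.18 and 0.25 in IDH1wt (-0.67 ± 0.08, adjusted p = 0.00045). Neither gene overlapped between the groups, and the replicates lay within 0.21 of each other. Prtn3, the proteinase 3 gene, fell by 0.74 and Ctsg, the cathepsin G gene, by 0.85, and Ms4a3, a membrane protein gene of granulocyte progenitors, changed by -0.59 ± 0.12 (adjusted p = 0.00594). Cst7, an inhibitor of cathepsins, stood at -1.44 ± 0.87 (adjusted p = 0.308), although its arrays did not overlap between the groups. Its R-2HG arrays spread from -5.05 to -0.41, and the fit shares 1 spread over the 4 groups.

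Of 19 measured secondary granule genes, 15 were called higher (78.9%, against 8.37% of all genes), and the median difference was 0.55. Mmp8, the neutrophil collagenase gene, held 1.48, 1.5 and 1.39 in IDH1mut and 0.00, 0.00 and -0.16 in IDH1wt, a 2.84-fold increase (1.51 ± 0.17, adjusted p = 0.000217). Olfm4, the olfactomedin gene of a neutrophil subset, held 0.91, 1.26 and 0.98 in IDH1mut and -0.61, 0.00 and -0.27 in IDH1wt (1.35 ± 0.18, adjusted p = 0.000542). Every IDH1mut array exceeded every IDH1wt array for these genes. Ceacam10, a cell adhesion gene, rose by 0.90 ± 0.18 (adjusted p = 0.00624), but 1 of its 3 probe sets gave 0.20 (adjusted p = 0.456). Adpgk, which rose by 1.17 ± 0.10 (adjusted p = 6.5e-05), is on the list but encodes a glucokinase and no granule protein. The 4 members that were not called lay between 0.05 and 0.28. The list's median was 0.35, 0.34 and 0.33 in the IDH1mut arrays and -0.16, -0.19 and -0.18 in the IDH1wt arrays.

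Of 23 measured tertiary granule and mature neutrophil genes, 14 were called higher and 1 lower (65.2% in all, against 15.7% of all genes). Their median was 0.56. Il1r2, the decoy receptor gene for interleukin 1, held 1.51, 1.22 and 1.06 in IDH1mut and -0.09, 0.11 and 0.03 in IDH1wt (1.25 ± 0.14, adjusted p = 0.000267). Arg2, an arginase gene, differed by 1.30 ± 0.16, Asprv1, an aspartic protease gene, by 1.05 ± 0.23, Fpr2, a formyl peptide receptor gene, by 0.99 ± 0.11, and Anxa1, an annexin gene, by 0.89 ± 0.10. Wfdc17, a small secreted protein gene, was the member called lower, at -0.83, -0.88 and -0.87 in IDH1mut and 0.49, 0.45 and 0.44 in IDH1wt (-1.32 ± 0.27, adjusted p = 0.00619). Stfa3, a stefin gene, held -0.18, -0.24 and -0.19 in IDH1mut and 3.05, 3.51 and 3.31 in IDH1wt. Although these groups lay far apart, Stfa3 did not pass (-3.50 ± 1.33, adjusted p = 0.102), and its R-2HG arrays, which enter the common SE, held -2.47, -2.42 and 4.41.

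The phagocyte NADPH oxidase makes superoxide in neutrophils. Of its 6 measured genes, 5 were called higher (83.3%, against 8.37% of all genes), with differences from 0.40 to 0.48. Ncf4, which encodes the subunit p40phox, held 0.05, 0.14 and 0.15 in IDH1mut and -0.36, -0.42 and -0.31 in IDH1wt (0.48 ± 0.06, adjusted p = 0.000505). Ncf1, which encodes p47phox, differed by 0.45 ± 0.07, the membrane subunit genes Cybb and Cyba by 0.45 ± 0.11 and 0.42 ± 0.08, and the proton channel gene Hvcn1 by 0.40 ± 0.09. Rac2, the GTPase of the complex, stood at 0.17 ± 0.07 (adjusted p = 0.146). The count was 3 without IDH1mut replicate 2 and 3 without IDH1wt replicate 3, in both cases without Cybb (adjusted p = 0.0516 and 0.0604) and Hvcn1 (adjusted p = 0.0516 and 0.0534). None of the 5 reached a 1.5-fold change.

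Promoters of granule genes are shown because these genes moved together and because C/EBP factors, which bind TTGCNNAA-like sites, are known to drive granulocyte genes. Each is the 250 bases before the RefSeq start of the gene (GRCm38.p6), written 5′ to 3′ on the gene's strand in lower case, with matches of TTGCNNAA on either strand in capitals. They belong to the 3 called members of the secondary and tertiary lists with the largest differences among those that had a match.
Mmp8: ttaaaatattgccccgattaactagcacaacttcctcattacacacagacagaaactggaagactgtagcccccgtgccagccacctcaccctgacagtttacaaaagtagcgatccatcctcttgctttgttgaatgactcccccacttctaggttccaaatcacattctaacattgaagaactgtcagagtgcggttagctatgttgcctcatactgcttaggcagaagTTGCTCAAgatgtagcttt
Anxa1: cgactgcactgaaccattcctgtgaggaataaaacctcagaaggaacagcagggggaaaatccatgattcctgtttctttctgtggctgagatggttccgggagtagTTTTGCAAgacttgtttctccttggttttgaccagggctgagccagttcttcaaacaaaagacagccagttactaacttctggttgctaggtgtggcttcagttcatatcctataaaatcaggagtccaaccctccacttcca
Ltf: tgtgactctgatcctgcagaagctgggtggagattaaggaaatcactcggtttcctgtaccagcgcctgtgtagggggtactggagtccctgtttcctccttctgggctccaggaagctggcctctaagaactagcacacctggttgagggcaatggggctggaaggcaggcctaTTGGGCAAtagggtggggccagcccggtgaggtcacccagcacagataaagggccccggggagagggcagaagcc
The 3 windows lie at chr9:7558179-7558428 (plus strand) for Mmp8, chr19:20390672-20390921 (minus strand) for Anxa1 and chr9:111019042-111019291 (plus strand) for Ltf, the lactoferrin gene, which rose by 0.60. TTGCNNAA occurred in 4 of 14 called secondary granule promoters in the table (28.6%) and in 5 of 16 of all measured ones (31.2%). Of the tertiary and mature neutrophil genes, 2 of 11 called promoters (18.2%) and 5 of 20 of all (25.0%) held it. Promoters on a single chromosome were left out of all these counts. Among all other measured genes with a promoter in the table the share was 9.57% (1211 of 12658). These are matches of letters in a short window and not measured binding.

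Receptors by which neutrophils sense their surroundings were higher in part. Of 18 measured chemokine and chemoattractant receptor genes, 8 were called higher and 1 lower (median 0.28). C5ar1, the receptor gene for complement C5a, held 0.99, 0.87 and 0.77 in IDH1mut and 0.09, 0.08 and -0.05 in IDH1wt (0.84 ± 0.10, adjusted p = 0.000444). Cxcr2, which directs neutrophils toward chemokines, held 0.98, 0.72 and 0.72 in IDH1mut and -0.09, 0.15 and 0.00 in IDH1wt (0.79 ± 0.14, adjusted p = 0.00263). The chemokine receptor gene Ccr1 rose by 0.62 ± 0.09 (adjusted p = 0.000829). Groups did not overlap for any of these 3 genes.

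Of 30 Fc and pattern recognition receptor genes, 12 were called higher and 2 lower (46.7% in all, against 15.7% of all genes). Clec5a, a myeloid lectin gene, held 1.25, 1.39 and 1.19 in IDH1mut and 0.45, -0.17 and -0.04 in IDH1wt (1.2 ± 0.20, adjusted p = 0.00208). Nlrp12, an inhibitory sensor gene of granulocytes, rose by 0.79 ± 0.16, and Fcgr4, an Fc receptor gene for IgG, by 0.71 ± 0.10. The members that fell were Cd14, the lipopolysaccharide co-receptor gene, with -0.08, -0.83 and -0.29 in IDH1mut and 0.65, 0.30 and 0.48 in IDH1wt (-0.88 ± 0.18, adjusted p = 0.00603), and Tlr1, a toll-like receptor gene (-0.67 ± 0.14, adjusted p = 0.00696). IDH1mut replicate 2 was the lowest IDH1mut array for both Cd14 and Tlr1.

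Among 22 integrin and adhesion genes, 4 were called higher and 6 lower (45.5% in all, against 15.7% of all genes). Cd9, a tetraspanin gene, rose by 0.66 ± 0.08 and Itgam, the CD11b integrin gene of neutrophils and monocytes, by 0.49 ± 0.08, with 0.25, 0.31 and 0.20 in IDH1mut and -0.20, -0.16 and -0.36 in IDH1wt. Pecam1, which encodes CD31, held -0.19, -0.26 and 0.00 in IDH1mut and 0.81, 0.44 and 0.58 in IDH1wt (-0.76 ± 0.11, adjusted p = 0.00102). Itga6, the laminin-binding integrin alpha 6 gene, fell by 0.62.

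Of 25 measured monocyte and macrophage genes, 7 were called lower, 1 was called higher and 17 did not pass. The called share was 32.0%, against 15.7% of all genes. The median was -0.14, but -0.29 without IDH1mut replicate 1, -0.09 without IDH1mut replicate 2 or 3, and -0.22 without IDH1wt replicate 3. Irf8, the transcription factor gene that directs progenitors toward monocytes, held -0.07, -0.82 and -0.38 in IDH1mut and 0.51, 0.38 and 0.41 in IDH1wt (-0.86 ± 0.15, adjusted p = 0.00296). Cd163, a haemoglobin scavenger receptor gene of macrophages, held 0.07, -0.42 and -0.21 in IDH1mut and 0.63, 0.83 and 0.55 in IDH1wt (-0.85 ± 0.17, adjusted p = 0.00562). F13a1, the coagulation factor XIII gene that monocytes express, held -0.17, -0.95 and -0.65 in IDH1mut and 0.13, 0.05 and 0.09 in IDH1wt (-0.68 ± 0.14, adjusted p = 0.00803). IDH1mut replicate 2 was the lowest and replicate 1 the highest IDH1mut array for these 3 genes, and the groups still did not overlap. The list's median was 0.26, -0.21 and -0.11 in the IDH1mut arrays and 0.12, 0.25 and 0.10 in the IDH1wt arrays, so the groups overlapped in this summary.

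Of 39 transcription factor genes of myeloid fate, 8 were called higher and 6 lower (35.9% in all, against 15.7% of all genes). Cebpa, which commits progenitors to granulocytes and monocytes, held -0.19, -0.33 and -0.23 in IDH1mut and 0.28, 0.36 and 0.25 in IDH1wt (-0.55 ± 0.08, adjusted p = 0.000855). Id2, an inhibitor of helix-loop-helix factors, held 0.96, 0.99 and 0.96 in IDH1mut and -0.52, 0.06 and -0.31 in IDH1wt (1.23 ± 0.13, adjusted p = 0.000213). Klf6, a zinc finger factor gene, rose by 0.56 ± 0.08 (adjusted p = 0.00129), as did Ets2, a factor downstream of ERK, by 0.56 ± 0.11 (adjusted p = 0.0066), although 1 probe set of Ets2 gave 0.40 (adjusted p = 0.115). The count of 14 fell to 9 without IDH1wt replicate 1 and to 8 without IDH1wt replicate 3.

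Cytokine receptor and JAK-STAT genes moved both ways, 8 higher and 8 lower of 37 (43.2% in all, against 15.7% of all genes). Csf3r, the receptor gene of the neutrophil growth factor G-CSF, rose by 0.52 ± 0.11 (adjusted p = 0.0094), with 0.57, 0.28 and 0.33 in IDH1mut and -0.26, -0.02 and -0.10 in IDH1wt. Il3ra, the interleukin 3 receptor gene, held -0.12, -0.60 and -0.41 in IDH1mut and 0.37, 0.39 and 0.41 in IDH1wt (-0.76 ± 0.12, adjusted p = 0.00155). Il6st, the shared receptor chain of interleukin 6 cytokines, fell by 0.69, and Jak3, a kinase gene of lymphoid cytokine receptors, by 0.50, while 1 of 4 probe sets of Il6st gave -0.17 (adjusted p = 0.48). Socs2, a feedback inhibitor gene, rose by 1.08 ± 0.22 (adjusted p = 0.00682), but its 4 probe sets gave 2.06, 1.81, 0.37 and 0.09, of which the last 2 were not called.

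**Figure D3:**
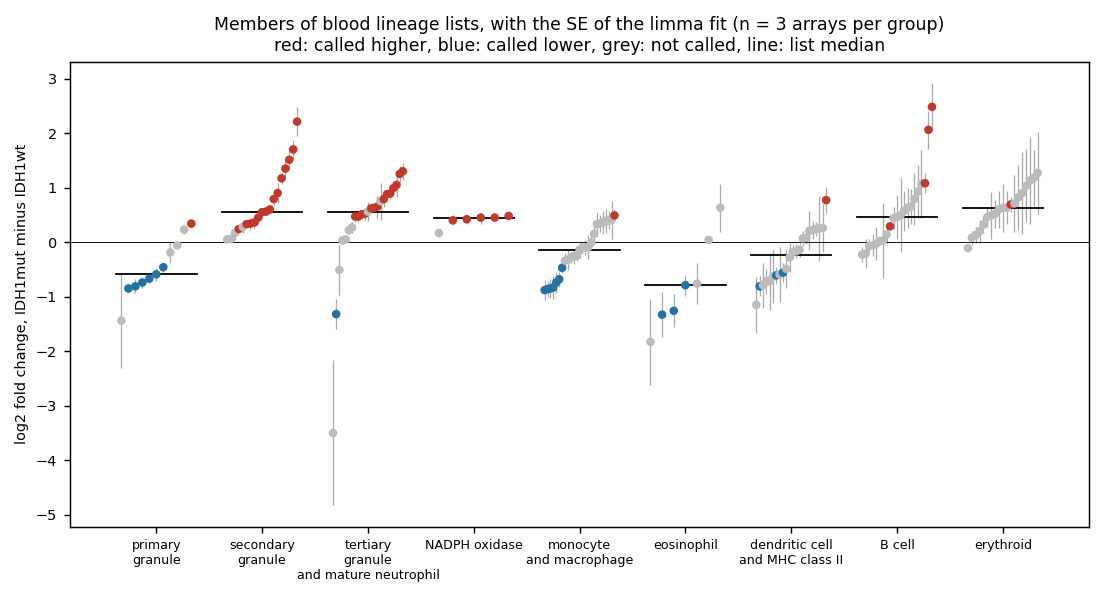
Log2 difference IDH1mut minus IDH1wt of each measured member of 9 blood lineage lists, sorted within a list, with vertical bars for the SE of the limma fit (n = 3 arrays per group), red for called higher, blue for called lower, grey for not called, and a black line at the list's median. The secondary granule and NADPH oxidase members lie above 0, primary granule members mostly below it, and the erythroid and B cell members have long bars.

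Some markers of other blood cells were called as well, and their part in the differences above was not tested. Limma called 19.0% of B cell, 16.7% of megakaryocyte and platelet, and 18.2% of dendritic cell and MHC class II genes. It called 5.26% of erythroid and 0% of mast cell and basophil genes, against 15.7% of all genes. All of these lists lay near or below that share, and eosinophil genes, at 42.9%, lay above it. Since the values are centred, whether a marker is absent cannot be read from them. B cell genes had a median difference of 0.46, with 4 of 21 called higher and no member called lower by limma (0 lower at an unadjusted p under 0.05). That median was 0.26 without IDH1mut replicate 3 and 0.29 without IDH1wt replicate 1. Vpreb1, which encodes part of the surrogate light chain in pre-B cells, held 1.96, 1.26 and 2.81 in IDH1mut and -1.20, 0.20 and -0.40 in IDH1wt (2.48 ± 0.44, adjusted p = 0.00307). Dntt, the terminal transferase gene of early lymphoid cells, held 1.39, 1.24 and 2.69 in IDH1mut and -0.71, 0.10 and -0.24 in IDH1wt (2.06 ± 0.35, adjusted p = 0.00262). IDH1mut replicate 3 was the highest array for both. Igll1, the other surrogate light chain gene, gave 2.23 at 1 probe set and -0.07 at the other. Cd79a, a B cell receptor chain gene named after its value was seen, stood at 0.57 ± 0.36 (adjusted p = 0.333). The list's median was 0.40, 0.22 and 1.04 in IDH1mut and -0.33, 0.31 and 0.03 in IDH1wt, and empty vector replicate 1 held 0.94.

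Of 24 T and NK cell genes, 3 were called higher and 2 lower (20.8% in all, against 15.7% of all genes). The T cell receptor complex genes Cd247, Cd3g and Cd3d rose by 1.37 ± 0.16, 1.13 ± 0.24 and 0.92 ± 0.15 (adjusted p = 0.000342, 0.00822 and 0.00189). Cd247 held 0.86, 0.85 and 1.54 in IDH1mut and -0.12, -0.50 and -0.25 in IDH1wt. By contrast Cd28, a T cell co-stimulation gene, held -0.46, -0.96 and -0.57 in IDH1mut and 0.75, 0.35 and 0.48 in IDH1wt (-1.19 ± 0.13, adjusted p = 0.000217). Nkg7, a granule membrane gene of cytotoxic cells, held -0.72, -0.52 and -0.60 in IDH1mut and 0.57, 0.25 and 0.36 in IDH1wt (-1.0 ± 0.09, adjusted p = 9.67e-05). Cd3e, another CD3 chain gene, named after its value was seen, stood at 0.21 ± 0.10 (adjusted p = 0.192).

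Erythroid genes had a median of 0.63 with 1 of 19 called, against 8.37% of all genes called higher. The list's median was 0.18, 0.44 and 0.29 in IDH1mut and -0.95, 0.24 and -0.16 in IDH1wt, and without IDH1wt replicate 1 the median difference was 0.27. Slc25a37, the mitochondrial iron importer gene, was the member called (0.69 ± 0.13, adjusted p = 0.0039), and 2 were called without IDH1wt replicate 2. Megakaryocyte and platelet genes had a median of 0.40, which was 0.19 without IDH1mut replicate 2 and 0.26 without IDH1wt replicate 1. Of 18, 3 were called higher, among them Clec1b, a platelet lectin gene (1.11 ± 0.18, adjusted p = 0.00203). Of 7 eosinophil genes 3 were called lower (median -0.79), and this count was 1 without any one of IDH1mut replicate 1, IDH1mut replicate 2, IDH1wt replicate 2 and IDH1wt replicate 3. Epx, the eosinophil peroxidase gene, held -0.56, -0.49 and -0.59 in IDH1mut and 0.07, 1.22 and 0.84 in IDH1wt (-1.26 ± 0.30, adjusted p = 0.0135, and 0.0519 without IDH1wt replicate 3). Of 16 mast cell and basophil genes limma called 0, with 2 lower at an unadjusted p under 0.05 and 1 called without IDH1wt replicate 1, and the median was -0.37. Of 22 dendritic cell and MHC class II genes 3 were called lower and 1 higher (median -0.23), with Bst2, the tetherin gene of plasmacytoid dendritic cells, at -0.81 ± 0.18 (adjusted p = 0.0107). That count of 4 was 1 without any one array other than IDH1mut replicate 1. Stromal and endothelial genes were called at 3 of 17, near the background of 15.7%, and at 6 without IDH1wt replicate 1.

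Type I interferon response genes were called higher in 11 of 35 and lower in 2 (37.1% in all, against 15.7% of all genes). The median was 0.16, but 0.06 without IDH1mut replicate 1 and 0.29 without IDH1wt replicate 2. Ifit3, an antiviral gene, held 1.14, 0.73 and 0.60 in IDH1mut and -0.08, 0.00 and -0.07 in IDH1wt (0.87 ± 0.19, adjusted p = 0.00859). Rsad2, which encodes viperin, held 0.79, 0.68 and 0.61 in IDH1mut and -0.21, 0.00 and -0.23 in IDH1wt (0.84 ± 0.12, adjusted p = 0.00104). Oasl2 and Oas2, genes of the oligoadenylate synthetase family, rose by 0.80 ± 0.17 and 0.73 ± 0.14. Bst2, also on this list, fell. The groups did not overlap for Ifit3, Rsad2, Oasl2 and Oas2, and empty vector arrays were lower still than IDH1wt for Ifit3, at -0.69, -0.87 and -0.81. The list's median was 0.19, 0.12 and 0.10 in IDH1mut and -0.15, 0.00 and -0.07 in IDH1wt.

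Interferon signals act on the promoter element known as ISRE, so the promoters of 3 members that were called higher are shown, again those with the largest differences among members with a match. They are the 250 bases before the RefSeq start (GRCm38.p6), 5′ to 3′ on the gene's strand, with matches of GAAA, any 2 bases and GAAA on either strand in capitals.
Ifit3: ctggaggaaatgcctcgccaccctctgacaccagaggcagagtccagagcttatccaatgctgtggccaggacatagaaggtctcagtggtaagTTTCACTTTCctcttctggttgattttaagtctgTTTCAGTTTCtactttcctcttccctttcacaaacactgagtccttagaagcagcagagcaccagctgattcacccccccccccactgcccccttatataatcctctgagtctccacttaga
Rsad2: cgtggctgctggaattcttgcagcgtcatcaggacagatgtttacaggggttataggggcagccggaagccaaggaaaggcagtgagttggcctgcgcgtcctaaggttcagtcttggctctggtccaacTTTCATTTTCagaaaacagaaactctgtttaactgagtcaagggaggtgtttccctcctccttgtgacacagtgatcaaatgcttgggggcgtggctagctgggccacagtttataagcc
Ifit1: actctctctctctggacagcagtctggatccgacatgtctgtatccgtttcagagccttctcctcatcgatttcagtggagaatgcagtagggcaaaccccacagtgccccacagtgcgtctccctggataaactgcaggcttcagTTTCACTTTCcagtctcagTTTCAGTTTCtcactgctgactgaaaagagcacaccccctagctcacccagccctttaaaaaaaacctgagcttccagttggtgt
These windows lie at chr19:34583279-34583528 (plus strand) for Ifit3, chr12:26456453-26456702 (minus strand) for Rsad2 and chr19:34640639-34640888 (plus strand) for Ifit1, a further antiviral gene, which rose by 0.72. This motif occurred in 5 of 9 promoters of members called higher (55.6%) and in 11 of 24 promoters of all measured members (45.8%), Bst2 among them. Of all measured genes with a promoter in the table, 399 of 12658 held it (3.15%). Promoters on the same single chromosome were left out here as well. A match names letters in this window and not a factor bound there.

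The Schlafen family, which includes growth regulators of lymphoid and myeloid cells, had 3 of 7 measured members called, all higher. That is 42.9%, against 8.37% of all genes called higher. Slfn4 held 0.16, 0.28 and 0.54 in IDH1mut and -0.93, -1.05 and -0.97 in IDH1wt (1.31 ± 0.15, adjusted p = 0.000283), which is 2.48-fold. Slfn1 rose by 0.97 ± 0.12 and Slfn2 by 0.78 ± 0.09. For Slfn4 the empty vector arrays lay lower again, at -1.46, -1.99 and -2.02.

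Stem cell genes did not move one way. Of 38 measured stem cell and self-renewal genes, 5 were called higher and 5 lower (26.3% in all, against 15.7% of all genes). Mecom, which encodes the stem cell transcription factor EVI1, held 1.40, 1.49 and 1.29 in IDH1mut and -0.34, -0.21 and 0.00 in IDH1wt (1.57 ± 0.13, adjusted p = 5.92e-05). The 2 probe sets of Mecom disagreed, with differences of 3.04 and 0.10. Meis1, the HoxA9 cofactor gene, held 0.38, 0.59 and 1.12 in IDH1mut and -0.28, -0.54 and -0.16 in IDH1wt (1.02 ± 0.16, adjusted p = 0.00167), and its 3 probe sets gave 2.07, 1.08 and -0.09. Hoxa9 held -0.34, -0.33 and -0.06 in IDH1mut and 0.36, 0.30 and 0.23 in IDH1wt (-0.54 ± 0.08, adjusted p = 0.00135). Whether its probe sets read the introduced HoxA9 is not known from the sources used here. Of the other Hox cofactor genes, Pknox1 rose by 0.58 ± 0.10 and Pbx2 by 0.35 ± 0.08, although 1 probe set of Pbx2 gave 0.27 (adjusted p = 0.0581).

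Of 38 DNA replication and G1/S genes, 7 were called lower and 2 higher (23.7%, against 15.7% of all genes), and 5 in all without any one of IDH1mut replicate 2, IDH1wt replicate 1 and IDH1wt replicate 3. Cdk6, the G1 kinase gene, held -0.68, -0.34 and 0.00 in IDH1mut and 0.33, 0.28 and 0.25 in IDH1wt (-0.62 ± 0.13, adjusted p = 0.00884). Cdt1, a replication licensing gene, fell by 0.37 and Dnmt1, the maintenance DNA methyltransferase gene, by 0.42 (adjusted p = 0.00144 and 0.00153). Of 35 mitosis and G2/M genes 1 was called (2.86%), and 3 without IDH1wt replicate 2. Without any one of the 3 IDH1mut arrays or IDH1wt replicate 3, limma called none of them.

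Genes that p53 can activate were called higher in 9 of 29 and lower in 2 (37.9% in all, against 15.7% of all genes). Their median was 0.20. Beside Fas, the growth arrest genes Gadd45g and Btg2 rose by 0.88 ± 0.14 and 0.83 ± 0.10 and the DNA repair gene Ddb2 by 0.73 ± 0.11. Btg2 held 0.77, 0.38 and 0.48 in IDH1mut and -0.40, -0.20 and -0.28 in IDH1wt. Cdkn1a, which encodes p21 and is a well-known p53 target, was named after its value was seen and was not called (0.11 ± 0.10, adjusted p = 0.526), and Perp fell as given above.

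Of 41 ribosome biogenesis and MYC genes, 5 were called higher and 2 lower (17.1%, near the 15.7% of all genes). In this list 33 genes lay below 0 and the median was -0.16. Mxd1, a repressor that competes with MYC, held 0.68, 0.49 and 0.33 in IDH1mut and -0.17, -0.01 and -0.21 in IDH1wt (0.63 ± 0.11, adjusted p = 0.0035). Max, the common partner of MYC and Mxd1, rose by 0.50 ± 0.06 (adjusted p = 0.000517) and Mxi1, another repressor gene, by 0.43 ± 0.09 (adjusted p = 0.00855), although 1 probe set of Mxi1 gave 0.37 (adjusted p = 0.0611). Myc itself stood at -0.36 ± 0.13 (adjusted p = 0.0776). Utp20 and Rrs1, genes of ribosome assembly, fell by 0.57 and 0.38. Of 25 cytosolic ribosomal protein genes 5 were called lower (median -0.13), and 2 to 5 when 1 array was left out: 2 without IDH1wt replicate 1, and 3 without any one of IDH1mut replicate 1, IDH1mut replicate 2 and IDH1wt replicate 3.

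Genes of IDH1 itself and of 2-hydroxyglutarate handling were mostly not called, with 1 of 11, Phgdh, lower (9.09%, against 15.7% of all genes). Idh1 held 0.21, -0.04 and -0.10 in IDH1mut and 0.01, -0.19 and -0.05 in IDH1wt (0.10 ± 0.11, adjusted p = 0.63), and whether its 2 probe sets read the introduced IDH1 is not known here. The level of the constructs was therefore not measured. Idh2, the mitochondrial counterpart, held 0.03, 0.05 and -0.07 in IDH1mut and 0.38, 0.20 and 0.24 in IDH1wt (-0.27 ± 0.09, adjusted p = 0.0545). The 2 probe sets of Idh2 disagreed, at -0.46 (limma adjusted p = 0.00837) and -0.08 (adjusted p = 0.721). D2hgdh, which breaks down R-2HG, stood at -0.02 ± 0.09 (adjusted p = 0.915). The TET genes Tet2 and Tet3 stood at -0.16 ± 0.10 and 0.44 ± 0.17 (adjusted p = 0.311 and 0.11), and the methyltransferase gene Dnmt3a at -0.24 ± 0.09 (adjusted p = 0.108). However, 1 probe set of Dnmt3a was called at -0.45 (limma adjusted p = 0.00837), and its others, from -0.30 to -0.07, were not. Of 37 other 2-oxoglutarate dioxygenase genes 4 were called lower and 1 higher, near the background, and 2 in all without any one of IDH1mut replicate 2, IDH1mut replicate 3 and IDH1wt replicate 3. Kdm2b, a histone demethylase gene, was the largest of these (-0.42 ± 0.09, adjusted p = 0.00933). Of 29 Polycomb and chromatin genes 2 were called (6.9%, against 15.7% of all genes), both lower. They were Phc1 at -0.45 ± 0.07 and Phc2 at -0.37 ± 0.08, which encode subunits of Polycomb complex 1.

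Branched-chain amino acid catabolism breaks down leucine, isoleucine and valine in mitochondria after a transamination that uses 2-oxoglutarate. Of its 16 measured genes 7 were called lower (43.8%, against 7.29% of all genes), with a median of -0.18. Dbt, a subunit gene of the branched-chain ketoacid dehydrogenase, held -0.37, -0.27 and -0.12 in IDH1mut and 0.30, 0.47 and 0.44 in IDH1wt (-0.66 ± 0.09, adjusted p = 0.000517). Bckdha, another subunit gene, held 0.02, -0.32 and -0.32 in IDH1mut and 0.52, 0.28 and 0.36 in IDH1wt (-0.59 ± 0.11, adjusted p = 0.00449). Neither gene overlapped between the groups. Ivd, the next enzyme for leucine, changed by -0.42 ± 0.10 (adjusted p = 0.0118). The count was 4 without any one of the 3 IDH1mut arrays or IDH1wt replicate 1, and 3 without IDH1wt replicate 3.

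Other metabolic lists held a few changed genes each. Acss2, which makes acetyl-CoA from acetate, held -0.63, -0.72 and -0.54 in IDH1mut and -0.05, 0.41 and 0.15 in IDH1wt (-0.80 ± 0.13, adjusted p = 0.00174), and its empty vector values of -0.42, -0.56 and -0.62 were near IDH1mut. Fasn, the fatty acid synthase gene, fell by 0.59 (adjusted p = 0.00389). With them, 6 of 28 cholesterol and fatty acid synthesis genes were called lower and 2 higher (28.6% in all, against 15.7% of all genes). The count was 5 in all without IDH1wt replicate 3. Phgdh, the entry enzyme of serine synthesis, held -0.04, 0.05 and -0.04 in IDH1mut and 0.61, 0.40 and 0.59 in IDH1wt (-0.54 ± 0.10, adjusted p = 0.00437). Got1, the cytosolic aspartate aminotransferase gene, rose by 0.50 ± 0.10 (adjusted p = 0.00653).

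Among 36 genes of the ATF4 and endoplasmic reticulum stress responses, 8 were called lower and 3 higher. That is 30.6% in all, against 15.7% of all genes. Chac1, which degrades glutathione, held 0.91, 0.55 and 0.38 in IDH1mut and -0.29, 0.00 and 0.01 in IDH1wt (0.71 ± 0.14, adjusted p = 0.00566). Nars, an asparaginyl-tRNA synthetase gene, held -0.41, -0.51 and -0.63 in IDH1mut and 0.04, 0.05 and 0.03 in IDH1wt (-0.56 ± 0.08, adjusted p = 0.000745). Both genes are known ATF4 targets, and they moved in opposite directions. Slc7a11, the cystine transporter gene, rose by 0.56 ± 0.12 (adjusted p = 0.00993), as did the glutathione reductase gene Gsr, by 0.38 ± 0.08 (adjusted p = 0.011), whereas 1 probe set of Slc7a11 gave 0.27 (adjusted p = 0.105). Of 26 lysosome and cathepsin genes 6 were called lower and 1 higher (26.9% in all, against 15.7% of all genes). The called genes numbered 4 in all without IDH1mut replicate 2 and 3 without IDH1wt replicate 3. Gaa, the acid glucosidase gene, led them with -0.14, -0.21 and -0.26 in IDH1mut and 0.54, 0.59 and 0.54 in IDH1wt (-0.76 ± 0.07, adjusted p = 0.000141).

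Of 19 heat shock chaperone genes 2 were called higher and 1 lower (15.8%, against 15.7% of all genes), and 1 in all without IDH1mut replicate 3. Hspa1b, an inducible heat shock protein gene, held -0.75, -1.52 and -0.69 in IDH1mut and -3.17, -1.97 and -2.59 in IDH1wt, a rise of 1.59 ± 0.37 (adjusted p = 0.0131). Empty vector arrays held 2.45, 2.61 and 2.40, above both groups. The call was lost without IDH1mut replicate 3 (adjusted p = 0.0525) and without IDH1wt replicate 1 (adjusted p = 0.0552), and signal from its near-identical copy Hspa1a may not be told apart from its own. Of 28 immediate early genes, 6 were called higher and 2 lower (28.6% in all, against 15.7% of all genes). The count was 4 in all without IDH1wt replicate 1. Zfp36, which destabilises cytokine messages, held 0.17, -0.20 and -0.04 in IDH1mut and -0.74, -0.55 and -0.62 in IDH1wt (0.61 ± 0.10, adjusted p = 0.00244).

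Of 32 NF-kB and inflammation genes, 6 were called higher and 2 lower (25.0% in all, against 15.7% of all genes). The list's median difference was -0.01, and 17 of its members lay below 0. Il1rn, the interleukin 1 receptor antagonist gene, held 1.24, 1.07 and 0.92 in IDH1mut and -0.06, -0.13 and -0.14 in IDH1wt (1.18 ± 0.12, adjusted p = 0.000135). Ccl6, a chemokine gene of myeloid cells, held 1.43, 0.81 and 0.68 in IDH1mut and 0.00, -0.02 and -0.05 in IDH1wt (0.99 ± 0.16, adjusted p = 0.00186). Nfkbiz, a regulator of NF-kB, rose by 0.52 ± 0.08 and Tnf, the tumour necrosis factor gene, by 0.45 ± 0.08. All IDH1mut arrays lay above all IDH1wt arrays for these 4 genes.

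**Figure D4:**
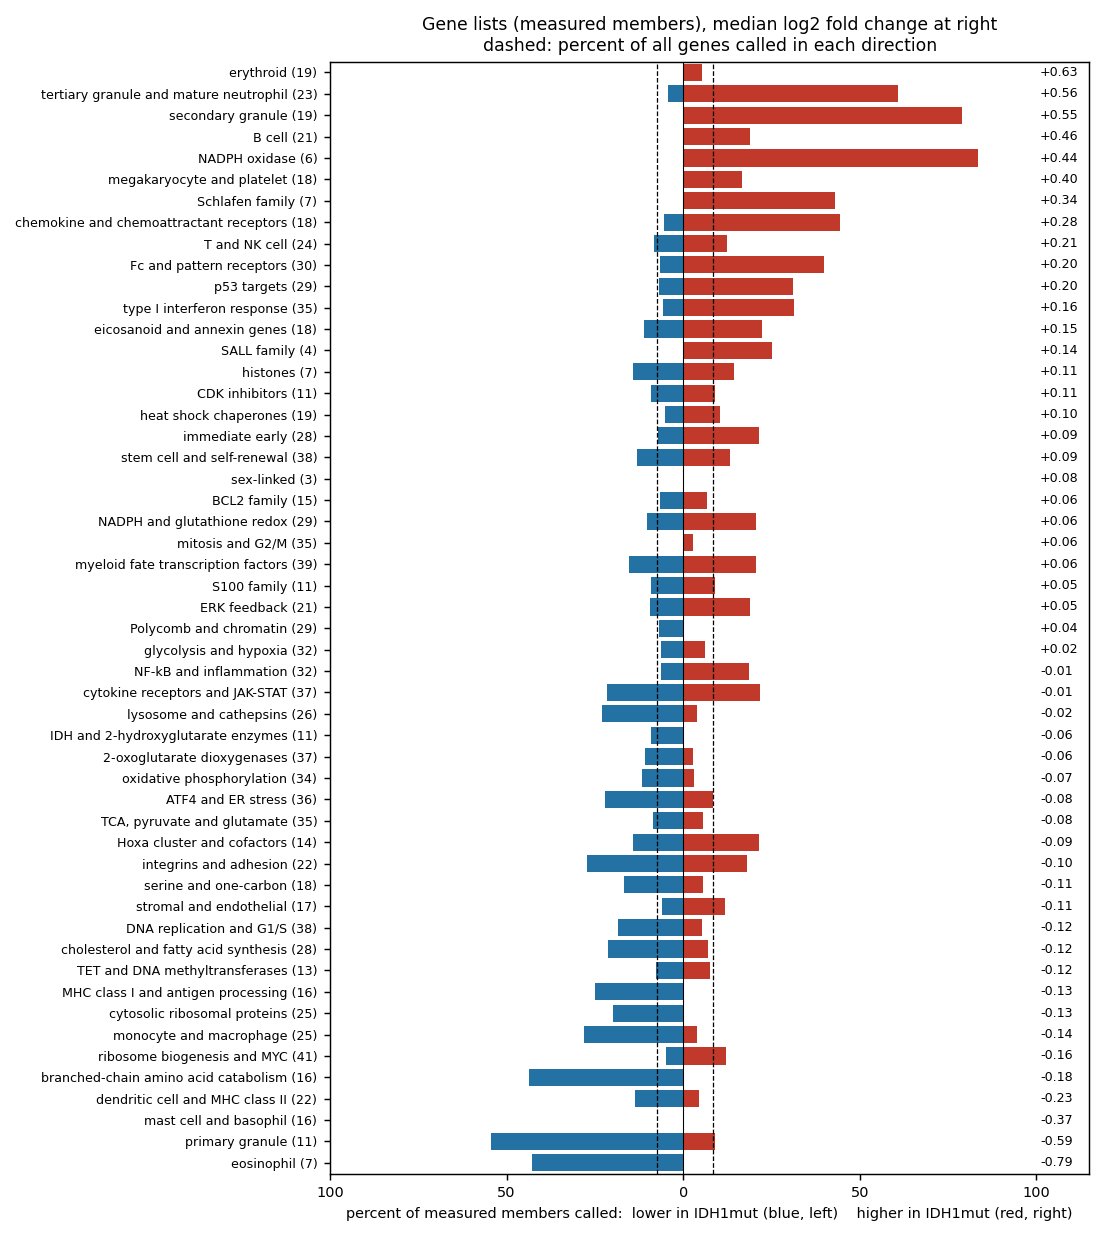
Percent of the measured members of each gene list that were called lower (blue, left) or higher (red, right) in IDH1mut than in IDH1wt, with the number measured in brackets and the median log2 difference at the right edge. Dashed lines mark the percent of all genes called in each direction, 7.29 and 8.37, and the secondary granule, NADPH oxidase and mature neutrophil bars reach farthest to the right.

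The same genes were then read in cells without an IDH1 construct. The difference R-2HG minus empty vector shares no array with IDH1mut minus IDH1wt. Calls in both comparisons are still not independent, because the fit shares the spread of each gene over all groups. A gene with a small spread is called more easily in both, so the shares below cannot be read as independent agreement. Of the 1328 genes called higher in IDH1mut, 641 (48.3%) were called higher in R-2HG and 42 lower, where R-2HG against empty vector called 16.5% of all genes higher and 24.3% lower. Of the 1156 called lower in IDH1mut, 801 (69.3%) were called lower in R-2HG and 14 higher. The 2 differences had a Pearson correlation of 0.439 across all 15858 genes, which are not independent. R-2HG replicate 3 stood apart from replicates 1 and 2. When replicate 3 was left out, R-2HG against empty vector called 18.8% of all genes higher and 25.5% lower. Without it, 690 of 1490 (46.3%) and 1063 of 1487 (71.5%) of the calls were shared, and with replicate 3 as the only R-2HG array 274 of 1310 (20.9%) and 487 of 1265 (38.5%), against 3.41% and 8.09% of all genes.

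The difference between the 2 differences was tested in the same fit and was called for 10.5% of all genes. Sall2 differed most: R-2HG minus empty vector was 0.14 ± 0.16, so the difference was 4.52 ± 0.23 (adjusted p = 3.29e-06), and at most 0.0002 with R-2HG arrays left out. Mecom (1.87 ± 0.19, adjusted p = 0.00107), Klhl41 (1.88 ± 0.20, adjusted p = 0.00114) and Vpreb1 (4.41 ± 0.62, adjusted p = 0.0053) were also higher by this test, and Vpreb1 changed by -1.93 ± 0.44 in R-2HG. Anxa1 rose with mutant IDH1 and stood at -0.12 ± 0.10 in R-2HG, a difference of 1.01 ± 0.14 (adjusted p = 0.0053). Olfm4 went further the other way, with 3.54 ± 0.18 in R-2HG and a difference of -2.19 ± 0.25 (adjusted p = 0.00181), as did Slfn4 with 2.48 ± 0.15 and -1.17 ± 0.21 (adjusted p = 0.0116, and 0.12 without R-2HG replicates 1 and 2). For Slfn4 the empty vector arrays lay below the IDH1wt arrays, so part of its difference comes from the unequal baselines. The test does not compare IDH1mut with R-2HG cells directly. Perp, high in IDH1wt, had a difference of -1.79 ± 0.28 (adjusted p = 0.00743).

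Other genes had values of similar size in both. Fmnl2 stood at 1.96 with mutant IDH1 and 2.06 ± 0.25 with R-2HG (difference -0.10 ± 0.35, adjusted p = 0.876), Fpr2 at 0.99 and 0.96 ± 0.11 (difference 0.02 ± 0.15, adjusted p = 0.937), and Rsad2 at 0.84 and 0.73 ± 0.12 (difference 0.11 ± 0.17, adjusted p = 0.704). As3mt stood at -2.19 and -2.65 ± 0.25 (difference 0.46 ± 0.35, adjusted p = 0.391), Cdkn2a at -1.63 and -1.38 ± 0.21 (difference -0.26 ± 0.29, adjusted p = 0.58) and Ctsg at -0.85 and -0.62 ± 0.09 (difference -0.22 ± 0.13, adjusted p = 0.256). The SEs leave room for differences that the test did not call. For Rhoj and Chil1 the call of the difference depended on R-2HG replicate 3: without it the differences were 1.37 ± 0.27 (adjusted p = 0.00592) and -0.89 ± 0.12 (adjusted p = 0.00081), and with all arrays 0.94 ± 0.43 (adjusted p = 0.16) and -0.46 ± 0.37 (adjusted p = 0.434).

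**Figure D5:**
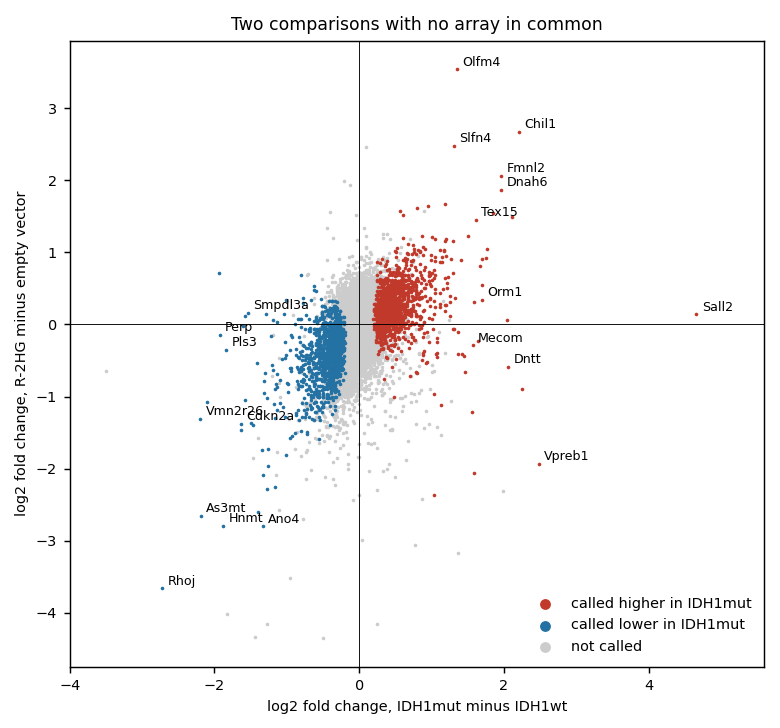
Each point is a gene, with the log2 difference IDH1mut minus IDH1wt on the horizontal axis and R-2HG minus empty vector on the vertical axis, red for genes called higher and blue for genes called lower in IDH1mut than in IDH1wt. Sall2 lies far to the right at 4.66 and near 0 (0.14) on the vertical axis, and Rhoj lies low on both at -2.72 and -3.66.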

How the data were processed

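RNA of 12 samples (3 per group) was measured on Affymetrix mouse arrays. The deposited values are log2 values that the authors made with RMA, per the submitters' processing notes (version not given). They are centred per probe set, as 83.6% of probe sets hold an exact 0, so only differences were used. Genes were named from the platform annotation: of 32533 probe sets 28805 had 1 symbol, 757 several and 2971 none, and probe sets of 1 symbol were averaged to 15858 genes.

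Differences were fitted with limma 3.58.1 (lmFit, eBayes) over all 12 arrays with 1 coefficient per group, two-sided, with Benjamini-Hochberg adjustment at 0.05. The number of arrays limits the precision. Tested on simulated data with 200 of 15858 genes changed, the fit recovered 69%, 98.2% and 100% of changes of 0.5, 1 and 2 on the log2 scale. The simulated spread of a gene was the same in all 4 groups, and no simulated array stood apart as R-2HG replicate 3 did. The 200 changed genes are also far fewer than the 2484 called in the real data, and this number moves the Benjamini-Hochberg threshold. Recovery in the real data may therefore be lower or higher. No scan date was used. Named genes were the 20 largest separate calls in each direction with clone and predicted names left out, up to 6 called and 3 uncalled members of each list, a few fixed genes and the 5 most like Sall2. Members and lists were chosen with earlier results of these data known. Alternatives were other normalisation, weights, filters, fits, probe set rules and leaving out each array.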

Additional observations from a re-analysis of the deposited data

How the results depend on the processing

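The 2484 called genes (1328 higher and 1156 lower in IDH1mut than in IDH1wt) numbered 1568 to 2135 when 1 array was left out, with 897 to 1136 higher and 671 to 999 lower. The lowest totals came without IDH1wt replicate 3 (1568, of which 671 lower) and without IDH1mut replicate 2 (1636, of which 684 lower), and 721 were lower without IDH1wt replicate 1. A minimum change of 1.5-fold left 596 (360 higher and 236 lower), and single probe sets gave 4059 of 28805 (2204 higher and 1855 lower). Quantile normalisation gave 2822, the 6 arrays alone 1844, array weights 3090, a filter on SD 2239, a trended prior variance 2527 and the probe set of highest SD 2309. At a single probe set the direction turned for Igll1 (-0.07), Meis1 (-0.09), Ccnd3 (-0.10) and Man2b1 (-0.01), and the cause was not tested. With the replicate number as a block 2178 genes were called. IDH1wt and IDH1mut arrays of the same number had deviations with correlations of 0.010, -0.070 and 0.004. In the other pairs of groups, arrays of the same number gave correlations from -0.152 to 0.124. Such values cannot show whether arrays of the same number share a mouse or a batch. Genes that R-2HG called in the same direction numbered 690 higher and 1063 lower without R-2HG replicate 3, and 274 and 487 without replicates 1 and 2, alternatives chosen after seeing the data, the second of which assumes that the lone array varies like the other groups.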
